A study of Mus musculus with 10 samples.

Results

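The collagens were followed by ATAC-seq, an assay of DNA that a transposase can reach, through the reprogramming of mouse fibroblasts to pluripotency. All 44 protein-coding genes with a symbol of the form Col, number, a, number were taken, of 21887 protein-coding genes on the chromosomes used, and every peak within a gene or 20 kb of either end was assigned to it. Of the 44 genes, 11 encode fibrillar chains and 33 encode other collagens, and all 44 passed the filter on low values (a mean of at least 1 peak over the samples). The labels give 2 libraries of 50000 cells at each of 5 stages. Cells named MEF, DAY3, DAY6 and DAY9 share the genotype OKSM Col1a1/M2rtTA ROSA26, which is a polycistronic reprogramming cassette (OKSM) placed at Col1a1 and the doxycycline-dependent activator M2rtTA placed at Rosa26, on a C57BL/6 x 129 background. MEF were embryonic fibroblasts kept without doxycycline. DAY3, DAY6 and DAY9 cells had 3, 6 and 9 days of 1 ug/ml doxycycline and 50 ug/ml ascorbic acid in embryonic stem cell medium. Only the DAY6 and DAY9 cells were sorted, for a marker that the labels write as SSEA+. ESC are the V6.5 embryonic stem cell line of the same strain label, without the cassette, grown without doxycycline on irradiated feeder cells in medium with serum and LIF. Sorting therefore cannot be told apart from DAY6 and DAY9, nor absence of the cassette from ESC, and nothing in the labels says that the libraries of a stage came from separate cultures or animals.

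Collagens are secreted proteins built of chains wound into a triple helix. Fibrillar collagens pack into the banded fibres of skin, tendon, bone and cartilage, network collagens form sheets such as the type IV meshwork of basement membranes, and the FACIT, beaded-filament, transmembrane and multiplexin families decorate fibres, form microfilaments or sit at cell surfaces and basement membranes. Fibroblasts are the classic source of types I, III, V and VI, and early embryonic cells make type IV collagen for basement membrane.

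The lists held between 45497 (DAY3 replicate 2) and 88980 (ESC replicate 2) peaks, and read depth is unknown. The DAY3 pair differed by close to sampling noise, and so did the DAY9 pair; each pair therefore entered as 1 mean, so that 8 samples were fitted. As a check of the labels, a peak lay at the start of 9 and 7 of 10 fibroblast marker genes in MEF and of 4 and 4 in ESC, and at the start of 1 and 4 of 10 pluripotency markers in MEF and of 10 and 10 in ESC. Of the fibroblast list, Postn and Fap had a start peak in MEF alone, whereas Prrx1, Pdgfrb and S100a4 had one in both ESC libraries. Thy1 had one in ESC replicate 1 and Twist2 in ESC replicate 2. Pdgfra and Dcn had none in MEF replicate 2, and Lum had one in no library. The fibroblast list summed to 53 and 40 peaks in MEF and to 29 and 26 in ESC; the part of the ESC feeder cells in the collagen results was not tested. Epithelial markers with a start peak numbered 1 and 0 of 6 in MEF and 5 and 5 in ESC, endothelial 1 and 1 of 5 against 3 and 2, macrophage 0 and 0 of 5 against 1 and 1, and skeletal muscle 1 and 1 of 4 against 3 and 3. No start peak was seen at Ptprc, Adgre1, Itgam, Pecam1 or Tie1 in any library.

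Open chromatin around the collagens was dense in fibroblasts and thin from the third day of induction on. Counting each peak once, the collagen windows held 387 and 270 peaks in the 2 MEF libraries, 146 and 157 at DAY3, 210 and 183 at DAY6, 243 and 242 at DAY9, and 209 and 203 in ESC. Per megabase of window this was 46.9 ± 11.8 (SD, n = 2) in MEF, against 35.8 ± 3.57 (n = 2) around all protein-coding genes. In DAY3 the collagen density was 21.6 ± 1.11 against 25.4 ± 0.108, and in ESC it was 29.4 ± 0.605 against 43.5 ± 0.794 (n = 2 each). The collagens thus lay above the all-gene density in both MEF libraries and below it in every later library. The MEF libraries differed most, 55.2 and 38.5 peaks per megabase. A collagen gene had a median of 7.5 and 5.5 peaks in MEF against 3 for a gene of the whole set, and of 5 and 4.5 in ESC against 4. These medians are not corrected for length, and collagen windows are long. The windows of the 44 collagens cover 7.01 Mb, and those of all 21887 genes 1436.66 Mb.

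**Figure D1:**
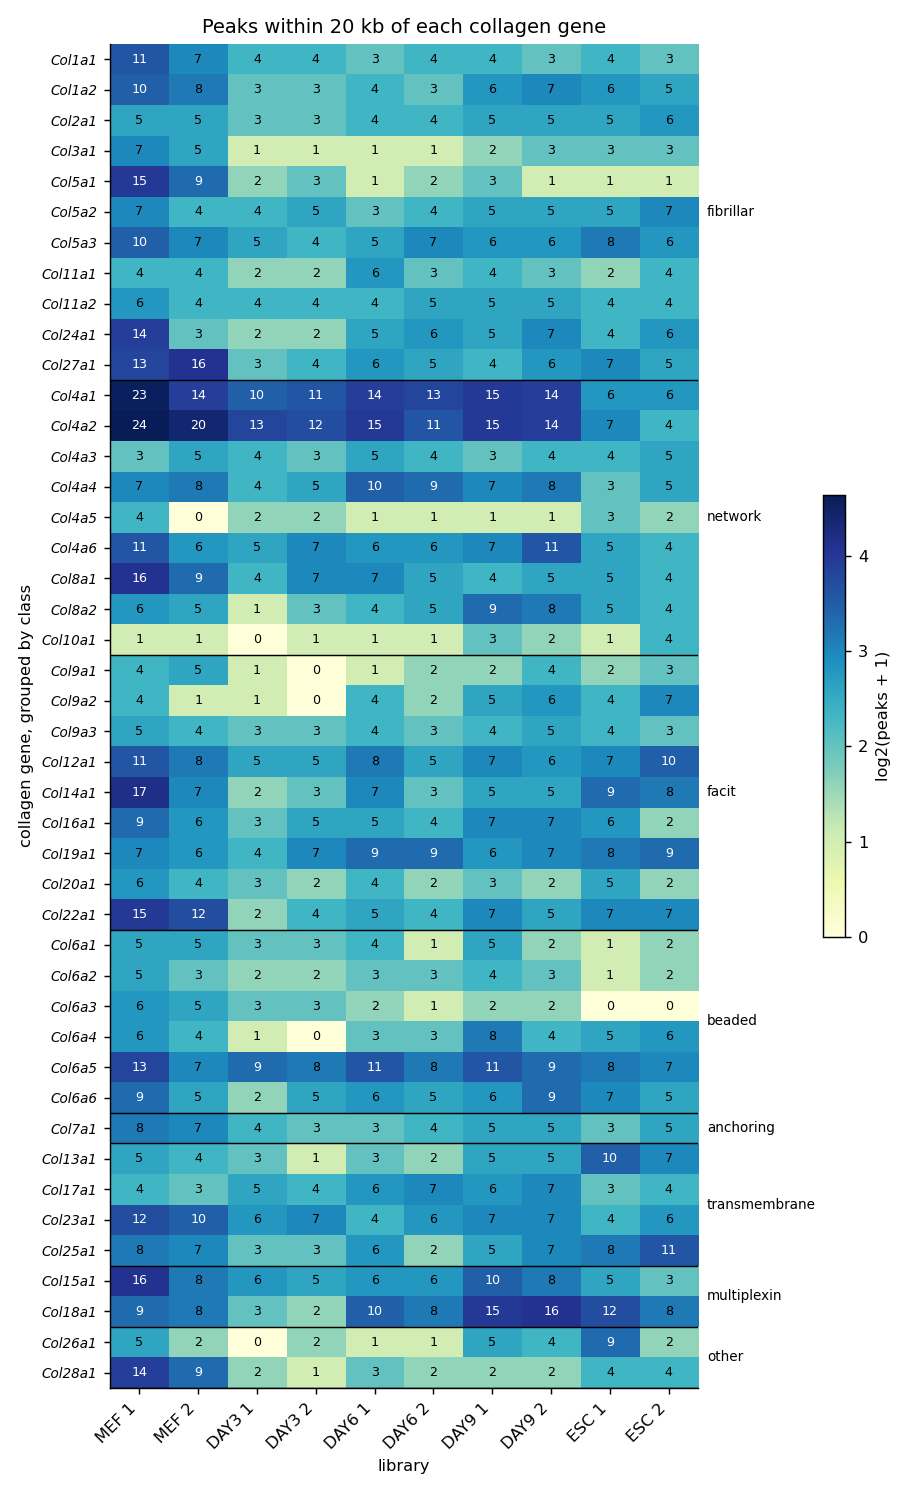
Number of peaks within 20 kb of each of the 44 collagen genes (rows, grouped by class) in each of the 10 libraries (columns); colour is log2(peaks + 1) and the printed number is the peak count. The MEF columns are the darkest for most genes, Col5a1 drops from 15 and 9 to 1 and 1 in ESC, and Col18a1 is highest at DAY9 with 15 and 16.

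Between MEF and DAY3, 11 of 44 collagens fell in peak number and none rose, beside 4.9% of all 18080 genes tested that fell and 0.282% that rose (limma on log2(peaks + 1), Benjamini-Hochberg adjusted p under 0.05 over all genes). The collagens that fell were the fibrillar Col1a2, Col3a1, Col5a1 and Col27a1 and the non-fibrillar Col6a4, Col8a2, Col9a1, Col14a1, Col18a1, Col22a1 and Col28a1. The median log2 difference was -0.78 over the collagens and -0.27 over all genes. The DAY3 lists are the shortest, and the all-gene values here and below are not matched for window length or peak number. Of the 44 differences, 42 were negative (all genes: 64.7%), and 25 had an unadjusted limma p under 0.05 (all genes: 3395 of 18080). Without MEF replicate 1, which has the most collagen peaks, the calls of Col6a4, Col9a1, Col18a1, Col22a1, Col27a1 and Col28a1 remained. Those of Col1a2, Col3a1, Col5a1, Col8a2 and Col14a1 were lost. Leaving out a MEF library also widens the standard error, so a lost call does not show that the difference came from that library. The call of Col8a2 was lost as well without MEF replicate 2 and without DAY3 replicate 1. With every list held to the same number of peaks, 4 fell (Col6a4, Col22a1, Col27a1 and Col28a1), beside 1.02% of all genes, and the medians were -0.42 over the collagens and 0 over all genes.

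From DAY3 to DAY6, 2 of 44 collagens rose, Col18a1 and Col6a4, and none fell (all genes: 1.06% rose and 0.00553% fell). No collagen was called from DAY6 to DAY9 (all genes: 0.0111% rose and 0% fell) or from DAY9 to ESC (all genes: 0.221% rose and 0.116% fell). Neither rise was called without DAY6 replicate 1. In these comparisons limma gave an unadjusted p under 0.05 for 7, 5 and 9 collagens, against 2157, 1157 and 2121 of all 18080 genes. With every list held to the same number of peaks, 6 collagens fell and 1 rose between DAY9 and ESC, beside 3.45% and 1.24% of all genes.

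In ESC against MEF, 14 of 44 collagens fell (all genes: 4.47%) and none rose, whereas 15.3% of all genes rose. The ones that fell were fibrillar Col1a1, Col5a1 and Col27a1, network Col4a1, Col4a2, Col4a4 and Col8a1, beaded Col6a1, Col6a2 and Col6a3, and Col15a1, Col22a1, Col23a1 and Col28a1. The collagen median was -0.38 on the log2 scale and that of all genes 0.23. In either direction, 21 collagens had an unadjusted limma p under 0.05, against 5918 of all 18080 genes. Leaving out MEF replicate 1 left 5 calls (Col4a1, Col4a2, Col5a1, Col6a3 and Col27a1, all among the 14), beside 1.81% of all genes. With lists of equal number, 17 collagens fell and 1 rose, 11 of the 14 among the 17, beside 10.1% of all genes that fell and 8.64% that rose. By base pairs under peaks instead of peak number, 3 collagens fell at DAY3 and 9 in ESC, beside 0.612% and 3.52% of all genes. With limma's default prior, 2 and 3 fell, beside 1.65% and 2.56%. That prior made many false calls on simulated data, in which libraries of a stage differed by random detection alone. The prior used was chosen after that, and the counts of called genes depend on the choice. The comparisons of DAY3 and ESC share the MEF libraries. Since these are bulk libraries, closure in every cell and openness in fewer cells cannot be told apart.

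**Figure D2:**
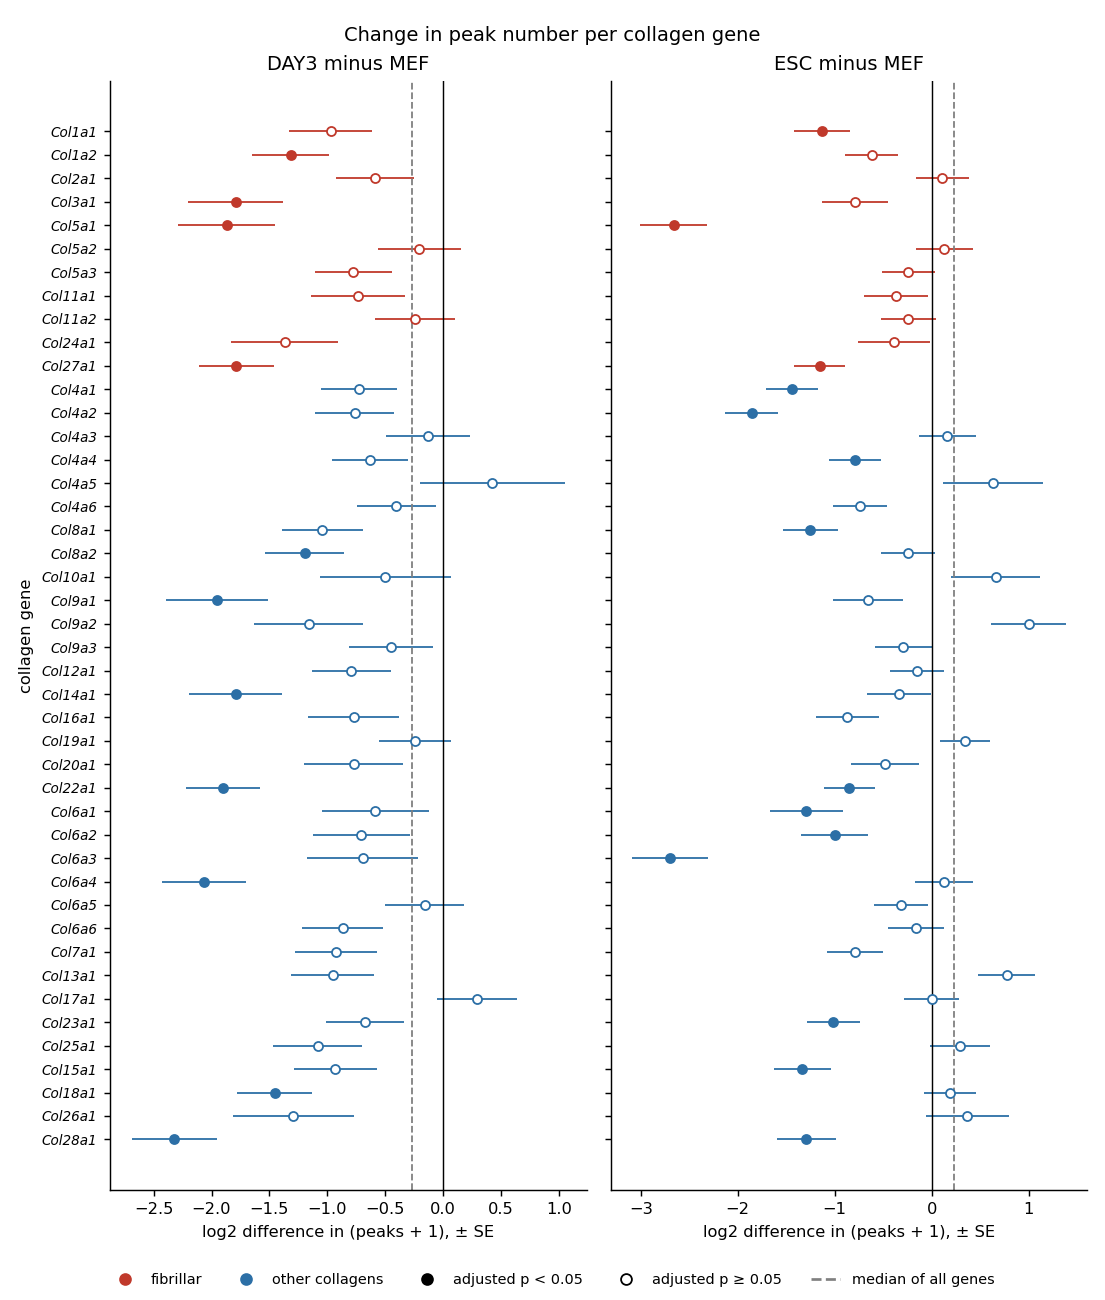
Log2 difference in (peaks + 1) with its standard error for each collagen gene, DAY3 minus MEF on the left and ESC minus MEF on the right; red is fibrillar, blue is other, filled points have an adjusted p under 0.05 and the dashed line is the median of all genes (-0.27 and 0.23). Col5a1 and Col6a3 lie farthest to the left in ESC, at -2.66 and -2.70.

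Type I collagen, the main protein of bone, skin and tendon, is made of 2 chains of Col1a1 and 1 of Col1a2. Col1a1 (gene 12842, chr11:94936224-94953042, mm10) had 11 and 7 peaks in MEF, 4 and 4 at DAY3, 3 and 4 at DAY6, 4 and 3 at DAY9 and 4 and 3 in ESC. Both MEF libraries lay above all 8 others. The gene fell by 1.13 ± 0.29 (SE) on the log2 scale in ESC (limma, adjusted p = 0.00697), and for DAY3 the difference was -0.97 ± 0.36 (adjusted p = 0.115). The ESC call held in 13 of 19 alternatives, with an adjusted p of up to 0.818 (limma). It was lost by base pairs under peaks, with 5 and 50 kb windows, with limma's default prior, without MEF replicate 1 and without ESC replicate 2. The 19 alternatives are each library left out in turn and changes of measure, pseudocount, list length, filter, window, replicate handling and prior. Leaving out a library of a stage not compared keeps the difference and alters only its spread, so some calls could hardly be lost. Col1a2 (gene 12843, chr6:4505618-4541543) had 10 and 8 peaks in MEF, 3 and 3 at DAY3, 4 and 3 at DAY6, 6 and 7 at DAY9 and 6 and 5 in ESC. It was lowest at DAY3 and DAY6 and its counts at DAY9 and ESC stood between these and MEF. It fell by 1.31 ± 0.33 at DAY3 (adjusted p = 0.0196) and differed by -0.62 ± 0.27 in ESC (adjusted p = 0.109).

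Types III and V form mixed fibres with type I in soft tissue. Col3a1 (gene 12825, chr1:45311538-45349706) had 7 and 5 peaks in MEF and a single peak in each DAY3 and DAY6 library. DAY9 had 2 and 3 peaks and ESC 3 and 3. It fell by 1.79 ± 0.41 at DAY3 (limma, adjusted p = 0.011) and differed by -0.79 ± 0.34 in ESC (adjusted p = 0.0975). Col5a1 (gene 12831, chr2:27886381-28039510), whose chain helps to start fibrils, had 15 and 9 peaks in MEF, 2 and 3 at DAY3, 1 and 2 at DAY6, 3 and 1 at DAY9 and 1 in each ESC library. No later library came near the MEF counts. It fell by 1.87 ± 0.42 at DAY3 (adjusted p = 0.00929) and by 2.66 ± 0.34 in ESC (adjusted p = 9.74e-06), and the ESC call held in all 19 alternatives.

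Col5a2 and Col5a3 encode the partner chains of type V. Col5a2 (gene 12832, chr1:45374331-45503282), a neighbour of Col3a1 whose window overlaps it, had 7 and 4 peaks in MEF, 4 and 5 at DAY3, 3 and 4 at DAY6, 5 and 5 at DAY9 and 5 and 7 in ESC, and MEF overlapped every later stage. Col5a3 (chr9:20770050-20815117) had 10 and 7 in MEF, 5 and 4 at DAY3, 5 and 7 at DAY6, 6 and 6 at DAY9 and 8 and 6 in ESC. Neither gene passed the test in any comparison.

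Col2a1, Col11a1 and Col11a2 are fibrillar collagens of cartilage. Col2a1, the main collagen of cartilage, had 5 and 5 peaks in MEF, 3 and 3 at DAY3, 4 and 4 at DAY6, 5 and 5 at DAY9 and 5 and 6 in ESC. Col11a1, whose chain sits in the core of cartilage fibrils, had 4 and 4, 2 and 2, 6 and 3, 4 and 3, and 2 and 4 in the same order. Col11a2, its partner, had 6 and 4, 4 and 4, 4 and 5, 5 and 5, and 4 and 4. For these genes the ESC counts reached or overlapped the MEF counts, and none passed the test in any comparison.

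Col24a1 and Col27a1 are later-described members of the fibrillar family. Col27a1 (gene 373864, chr4:63214009-63334991), expressed in cartilage, had 13 and 16 peaks in MEF, 3 and 4 at DAY3, 6 and 5 at DAY6, 4 and 6 at DAY9 and 7 and 5 in ESC. It was the fibrillar gene with the most regions lost, 10 of its 11 MEF regions between MEF and ESC. It fell by 1.79 ± 0.32 at DAY3 (limma, adjusted p = 0.00153) and by 1.15 ± 0.26 in ESC (adjusted p = 0.00292). Col24a1 had 14 peaks in MEF replicate 1 and 3 in MEF replicate 2, then 2 and 2 at DAY3, 5 and 6 at DAY6, 5 and 7 at DAY9 and 4 and 6 in ESC. Its MEF libraries disagreed more than its stages did, and it passed no test (adjusted p = 0.0814 for DAY3 and 0.506 for ESC).

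Of the network collagens, Col4a1 (chr8:11198423-11312889) and Col4a2 (chr8:11312805-11449287) encode the chains of the common basement membrane network and are transcribed from a shared start region in opposite directions, so their windows share peaks. Col4a2 had 24 and 20 peaks in MEF, 13 and 12 at DAY3, 15 and 11 at DAY6, 15 and 14 at DAY9 and 7 and 4 in ESC. Col4a1 had 23 and 14, 10 and 11, 14 and 13, 15 and 14, and 6 and 6. Both stayed above 9 peaks in every library up to DAY9 and dropped under 8 in ESC alone. Col4a2 fell by 1.86 ± 0.28 in ESC against MEF (limma, adjusted p = 4.73e-05), and Col4a1 fell by 1.44 ± 0.27 (adjusted p = 0.000501). For ESC against DAY9 the differences were -1.29 ± 0.34 (adjusted p = 0.0831) and -1.15 ± 0.33 (adjusted p = 0.12). Col4a4, a chain of the specialised network of the kidney filter, had 7 and 8 peaks in MEF, 4 and 5 at DAY3, 10 and 9 at DAY6, 7 and 8 at DAY9 and 3 and 5 in ESC. Its fall in ESC was -0.79 ± 0.27 (adjusted p = 0.0375), and the call held in 10 of 19 alternatives, with an adjusted p of up to 0.573. Col8a1, of the short-chain network collagens, had 16 and 9 peaks in MEF and between 4 and 7 in every later library, and fell by 1.25 ± 0.28 in ESC (adjusted p = 0.00269).

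Type VI collagen forms beaded filaments near cells, and its 3 classic chains were all lower in ESC. Col6a3 (chr1:90766860-90844001) had 6 and 5 peaks in MEF, 3 and 3 at DAY3, 2 and 1 at DAY6, 2 and 2 at DAY9 and none in either ESC library. It was the only collagen without a peak in both ESC libraries. The log2 difference was -2.70 ± 0.39 (limma, adjusted p = 3.56e-05) and the call held in all 19 alternatives. Col6a1 had 5 and 5 peaks in MEF and 1 and 2 in ESC and fell by 1.29 ± 0.37 (adjusted p = 0.0152). Col6a2 went from 5 and 3 to 1 and 2 (-1.0 ± 0.34, adjusted p = 0.0393), a call that held in 10 of 19 alternatives. It was lost with a pseudocount of 0.5, a 5 kb window or the default prior, and with any MEF, DAY6 or ESC library left out. Col6a4, a later-described type VI chain, had 6 and 4 peaks in MEF, 1 and 0 at DAY3, 3 and 3 at DAY6, 8 and 4 at DAY9 and 5 and 6 in ESC. It fell by 2.06 ± 0.37 at DAY3 (adjusted p = 0.00121) and rose by 1.5 ± 0.37 at DAY6 (adjusted p = 0.0398).

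The multiplexins are basement membrane collagens with cleaved ends. Col18a1, whose fragment endostatin is known as an inhibitor of vessel growth, had 9 and 8 peaks in MEF, 3 and 2 at DAY3, 10 and 8 at DAY6, 15 and 16 at DAY9 and 12 and 8 in ESC. It fell by 1.45 ± 0.32 at DAY3 (limma, adjusted p = 0.00865) and rose by 1.52 ± 0.32 at DAY6 (adjusted p = 0.0179), and both DAY9 libraries lay above every other library. Col15a1 had 16 and 8 in MEF, 6 and 5 at DAY3, 6 and 6 at DAY6, 10 and 8 at DAY9 and 5 and 3 in ESC, and fell by 1.34 ± 0.29 in ESC (adjusted p = 0.00206).

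Col22a1, a fibril-associated (FACIT) collagen of tissue junctions, had 15 and 12 peaks in MEF, 2 and 4 at DAY3, 5 and 4 at DAY6, 7 and 5 at DAY9 and 7 and 7 in ESC. Its fall of 1.90 ± 0.32 at DAY3 held in all 19 alternatives (limma, adjusted p = 0.00088), and in ESC it fell by 0.85 ± 0.26 (adjusted p = 0.0213), a call that held in 12 of 19, with an adjusted p of up to 0.349. Col16a1, another FACIT collagen, had 9 and 6 peaks in MEF, 3 and 5 at DAY3, 5 and 4 at DAY6, 7 and 7 at DAY9 and 6 and 2 in ESC. Its ESC difference of -0.87 ± 0.32 did not pass (adjusted p = 0.056). Col28a1, which resembles the beaded collagens, had 14 and 9 peaks in MEF, 2 and 1 at DAY3, 3 and 2 at DAY6, 2 and 2 at DAY9 and 4 and 4 in ESC. It fell by 2.32 ± 0.37 at DAY3 (adjusted p = 0.000592), the largest DAY3 difference of the 44, and by 1.29 ± 0.30 in ESC (adjusted p = 0.00327). Col23a1, a transmembrane collagen, had 12 and 10 peaks in MEF and between 4 and 7 afterwards, and fell by 1.02 ± 0.27 in ESC (adjusted p = 0.00956).

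The remaining collagens that fell at DAY3 were Col14a1 (17 and 7 peaks in MEF, 2 and 3 at DAY3, 9 and 8 in ESC), Col9a1 (4 and 5, 1 and 0, 2 and 3) and Col8a2 (6 and 5, 1 and 3, 5 and 4). Their log2 differences at DAY3 were -1.79 ± 0.40, -1.95 ± 0.44 and -1.20 ± 0.34, and their adjusted p-values 0.00929, 0.00958 and 0.0374. The calls held in 14, 14 and 10 of 19 alternatives; those of Col9a1 and Col8a2 were lost without MEF replicate 2. Col8a2, with 9 and 8 peaks at DAY9, was above its MEF counts there. The highest ESC-minus-MEF values belonged to Col9a2 (4 and 1 peaks in MEF, 4 and 7 in ESC, 1.0 ± 0.38, adjusted p = 0.0652) and to Col13a1 (5 and 4 in MEF, 10 and 7 in ESC, 0.78 ± 0.29, adjusted p = 0.0605), which did not pass.

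Fibrillar and other collagens are compared by their counts and medians. In DAY3, 4 of 11 fibrillar and 7 of 33 other genes fell, and in ESC 3 of 11 and 11 of 33. The median log2 difference was -0.97 over the fibrillar and -0.77 over the other genes at DAY3, and -0.39 and -0.34 in ESC. Without Col1a1, the gene of the cassette locus, the fibrillar medians were -1.05 and -0.38. The difference between the classes was not tested, since the members were chosen with results known. The fibrillar windows held 58.5 ± 14.4 peaks per megabase in MEF (SD, n = 2 here and for the values that follow), 23.1 ± 0.962 at DAY3 and 29.2 ± 0.962 at DAY6. For DAY9 and ESC the values were 33.0 ± 0.481 and 32.3 ± 0.481. In the same order the other collagens held 43.8 ± 11.1, 21.2 ± 1.15, 27.7 ± 3.70, 35.0 ± 0.255 and 28.6 ± 0.894. Fibrillar genes were the denser class in each MEF library, and at DAY3, DAY6 and DAY9 the class means lay close together. From DAY9 to ESC the fibrillar mean hardly moved and that of the other collagens was lower in ESC beyond the spread of its libraries. The non-fibrillar classes went both ways: the network collagens had 57 and 60 peaks at DAY9 and 35 and 35 in ESC. Mean peaks at DAY9 and in ESC were 30.5 and 19.5 for the beaded class, 24.5 and 14 for the multiplexins and 5 and 4 for the anchoring class. They were 44.5 and 50 for the FACIT class, 24.5 and 26.5 for the transmembrane class and 6.5 and 9.5 for the rest.

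The peaks of all libraries were merged into 208851 regions, of which 704 overlapped a collagen window. A region counts as a stage's when both its libraries have a peak there, as lost when the later stage has no peak in either library, and as gained in the reverse case. With 2 libraries against 2, the smallest exact permutation p is 0.333, so these counts carry no p. The intervals given are exact binomial 95% intervals that cover counting error only, and neighbouring regions are not independent.

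Of 219 MEF regions near collagens, 135 were lost by DAY3, a share of 61.6% (54.9 to 68.1%), against 40.8% near all protein-coding genes. In ESC 147 of the 219 were lost, 67.1% (60.5 to 73.3%), against 43.5%. The gap to all genes is narrower among regions of one kind of place. Only 16.9% of the collagen MEF regions lay within 1 kb of a gene start, against 34.3% near all genes, and regions at starts were seldom lost. Away from starts, 128 of 182 collagen regions were lost by DAY3 (70.3%, 63.1 to 76.9%), against 59% near all genes, and 141 of 182 in ESC (77.5%, 70.7 to 83.3%), against 63.5%. At starts, 7 of 37 were lost by DAY3 (18.9%, 7.96 to 35.2%, against 5.85%) and 6 of 37 in ESC (16.2%, 6.19 to 32.0%, against 5.26%). This split by place was chosen after seeing the data.

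Of the 147 regions lost between MEF and ESC, 118 (80.3%) had no peak in either DAY3 library, against 77.4% near all genes, and the DAY3 lists are the shortest. For 15 the first stage without a peak was DAY6, for 4 it was DAY9 and for 10 it was ESC. Of the 118, 92 lay inside a collagen gene and 4 near a start. Averaged over the 2 libraries, 33.1% of the MEF regions carried a peak at DAY3, and 32.6, 36.5 and 29.7% did so at the 3 later stages, with an SD of at most 1.94, against 54.8, 54.3, 55.3 and 52.5% near all genes. By class, 34 of 54 fibrillar MEF regions by DAY3 (63.0%, 48.7 to 75.7%) and 101 of 165 others (61.2%, 53.3 to 68.7%) were lost, then 36 of 54 (66.7%) and 111 of 165 (67.3%) in ESC. The intervals of the classes overlap over most of their width, and at this number of regions a moderate difference would not have been detectable.

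**Figure D3:**
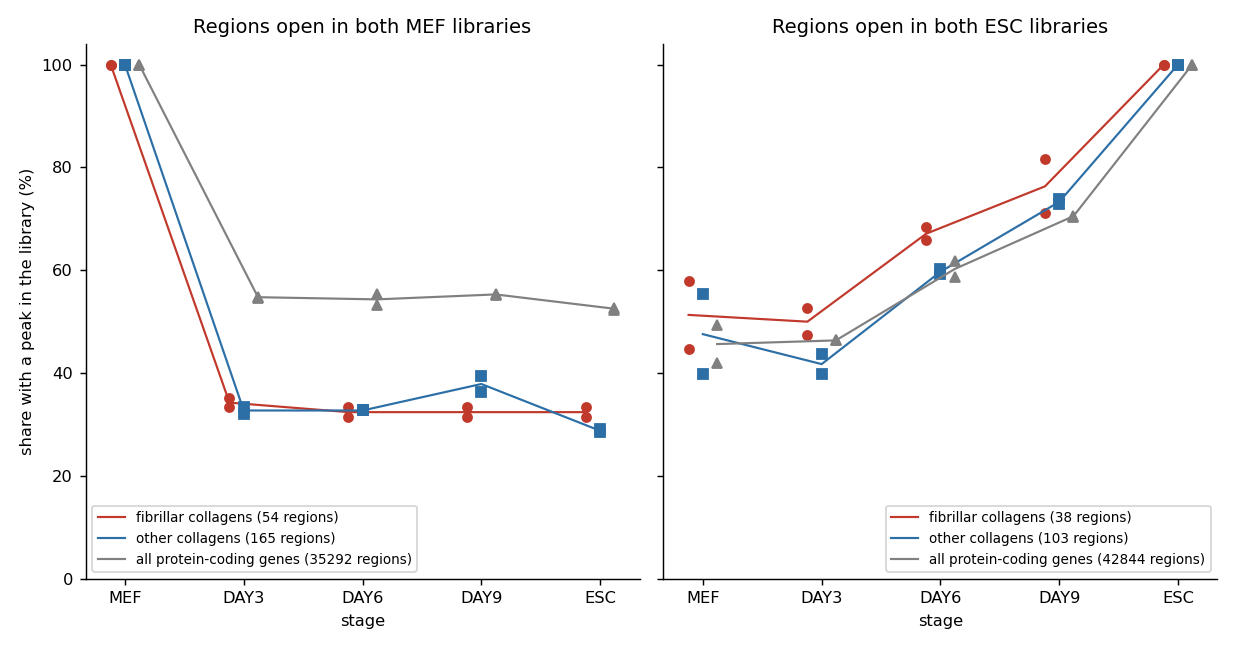
Share of regions with a peak in each library, by stage, for the regions of both MEF libraries (left) and of both ESC libraries (right); points are libraries and lines join the means, for fibrillar collagens, other collagens and all protein-coding genes. The shares are 100% in the stage that defines the regions; the MEF regions near either class of collagen lie between 28.8 and 37.9% on average from DAY3 on, and those near all genes between 52.5 and 55.3%.

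ESC had 141 collagen regions, of which 62 were absent from MEF (44.0%, 35.6 to 52.6%), against 48.7% near all genes. Of the 62, 7 were first present in both DAY3 libraries and 12 in those of DAY6. DAY9 added 10, and 33 (53.2%, against 56.7%) were first in both libraries of ESC. Between MEF and DAY3, 37 of 114 DAY3 regions were gained (32.5%, 24.0 to 41.9%), against 28.3%. Split by place, the gained share by DAY3 was 35 of 81 away from starts (43.2%, against 45.9%) and 2 of 33 at starts (6.06%, against 3.52%). In ESC it was 55 of 97 away from starts (56.7%, against 66.1%) and 7 of 44 at starts (15.9%, against 12.2%). The steps between the later stages were smaller. From DAY3 to DAY6, 14 of 114 regions were lost (12.3%, against 7.65%) and 41 of 147 gained (27.9%, against 21.3%). From DAY6 to DAY9, 9 of 147 were lost (6.12%, against 3.71%) and 38 of 200 gained (19.0%, against 16.5%). From DAY9 to ESC, 67 of 200 were lost (33.5%, against 27.8%) and 29 of 141 gained (20.6%, against 25.7%). In that last step the network collagens lost 25 of 49 regions (51.0%, 36.3 to 65.6%) and the fibrillar collagens 8 of 39 (20.5%, 9.30 to 36.5%); this contrast of classes was picked after their values were seen.

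A further 65 of the 704 regions (9.23%, against 9.88% near all genes) were transient, seen in both libraries of at least 1 induced stage but never in MEF or ESC. They made up 57 of 540 regions of the other collagens and 8 of 164 of the fibrillar ones. Col4a1 and Col4a2 each had 9 in their windows, in part the same ones. Another 38 regions (5.4%, against 9.8%) were present in all 10 libraries, 13 of them fibrillar.

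The best-ranked lost regions were chosen by their standing within the MEF lists. The first lay inside Col19a1, a FACIT collagen (chr1:24553410-24554017), with a deposited fold enrichment of 15.8 and 13.6 in MEF, 7.61 and 4.63 at DAY3, 3.37 and 9.02 at DAY6 and no peak at DAY9 or ESC. It closed later than most. A region 10.4 kb outside Col5a3 (chr9:20825561-20826171) had folds of 13.1 and 11.3 in MEF and no peak afterwards. The same all-or-none pattern held for regions inside Col22a1 (chr15:71862874-71863811, folds of 13.1 and 8.58) and inside Col6a6 (chr9:105764173-105765148, 12.8 and 7.74). A region inside Col15a1 (chr4:47310663-47311277) went from 11.0 and 9.35 in MEF to 3.49 and 3.03 at DAY3, and was absent from ESC. One inside Col28a1 (chr6:8171937-8172678), 11.7 and 7.83 in MEF, kept a peak of 3.01 in 1 DAY3 library only. The deposited folds depend on each library's depth and are given as description.

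Of the gained regions, the best-ranked lay between Col3a1 and Col5a2 (chr1:45357872-45359058), 8.17 kb past Col3a1, with folds of 10.1 and 7.91 in ESC and 2.87 in 1 DAY9 library. One inside Col6a5 (chr9:105915062-105915824) had 3.48 and 3.94 at DAY9 and 12.3 and 11.2 in ESC. The one inside Col18a1 (chr10:77151261-77152810) opened earlier, with 7.32 and 10.2 at DAY6, 13.1 and 11.0 at DAY9 and 10.7 and 8.98 in ESC. A region 13.0 kb outside Col17a1, a collagen of skin anchoring (chr19:47705066-47706412), was present from DAY3 on, with folds from 3.35 to 11.8. A region inside Col4a5 (chrX:141566900-141568660) was seen in ESC alone, at 7.35 and 5.87.

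The transient regions described were the 6 best-ranked of the 65, so their strength follows from that choice. A region inside Col6a5 (chr9:105892435-105893183) had folds of 11.3 and 11.1 at DAY3, 16.3 and 18.3 at DAY6 and 17.4 and 17.5 at DAY9. One inside Col6a3 (chr1:90770645-90771596), 72.9 kb from the start of that gene, had 6.74 and 8.81, 10.1 and 15.0, and 11.3 and 12.2. Others lay inside Col5a3 (chr9:20776088-20776982, folds from 7.12 to 14.4), Col19a1 (chr1:24432914-24433642, 6.35 to 12.6) and Col5a2 (chr1:45423876-45424524, at least 6.21), and 3.38 kb outside Col4a4 (chr1:82444418-82445041, 6.73 to 9.89, from DAY6 on). None of these had a peak in a MEF or ESC library, by the way they were chosen. Whether named regions fall in exons or introns was not analysed here.

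Gene starts kept their peaks more often than other regions. A peak within 1 kb of the start was present in both libraries for 21 of 44 collagens in MEF and, stage by stage, for 17, 22, 26 and 24 after that, against 56.8, 56.2, 60.5, 63.7 and 63.1% of all genes. Among the fibrillar genes this was 8, 6, 7, 9 and 8 of 11. The start base itself lay under a peak in both libraries for 17, 15, 20, 23 and 19 collagens, against 50.7, 51.2, 54.5, 57.6 and 56.1% of all genes. Strand and start come from RefSeq promoters for 35 of the 44 genes; for the other 9, Col1a1 among them, either gene end was accepted, which can count the far end.

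**Figure D4:**
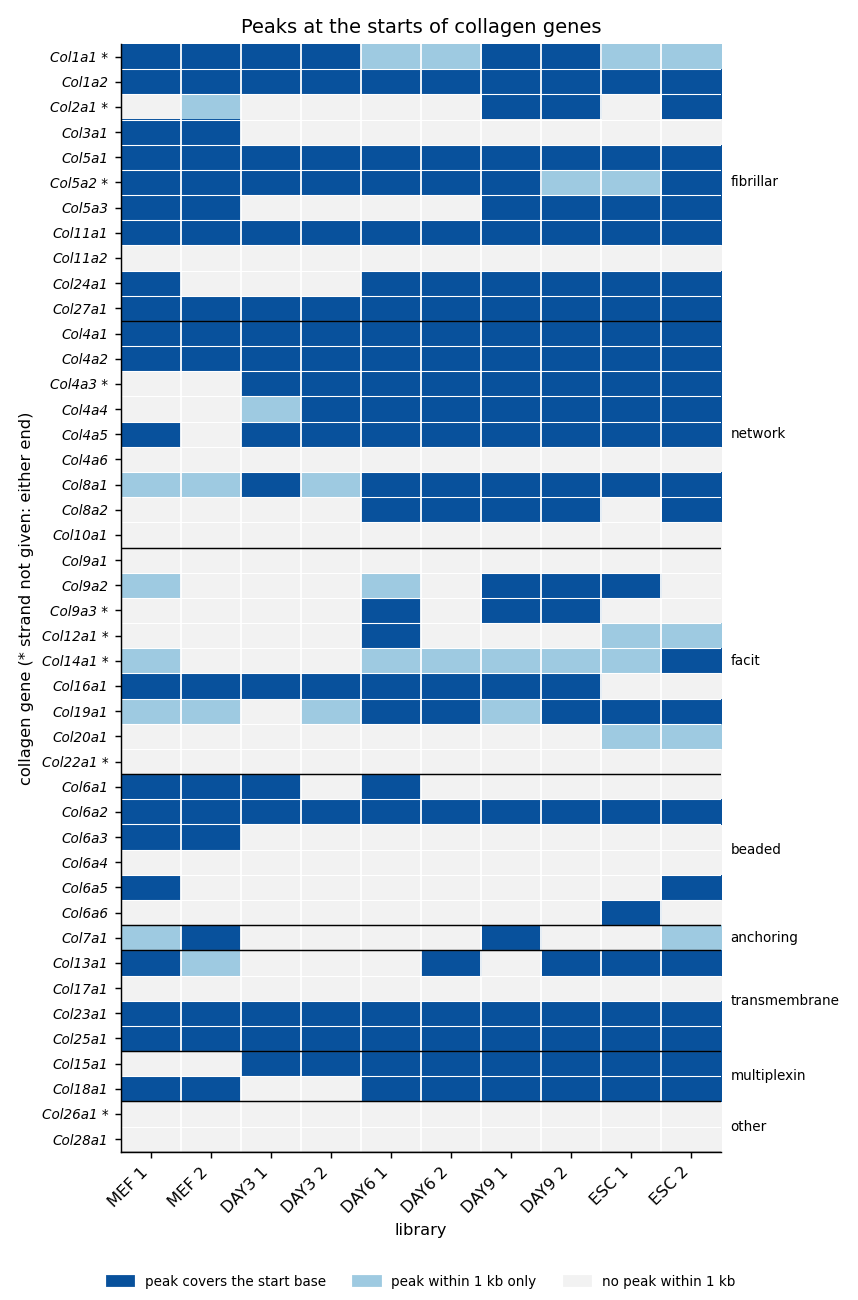
Peaks at the start of each collagen gene (rows) in each library (columns): dark blue where a peak covers the start base, light blue where one lies within 1 kb only, grey where none does; an asterisk marks the 9 genes where either gene end was accepted. Col3a1 and Col6a3 are dark in the MEF columns alone, and Col15a1 in all columns but MEF.

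Sequences from RefSeq (GRCm38.p6) are shown for 5 genes whose starts follow contrasting courses, each the 250 bases before the start, 5′ to 3′ on the gene's strand. The capitals mark matches to the motifs CCAAT (core of NF-Y sites), CACCC (a core of KLF family sites), TATAAA (the TATA box) and TGANTCA (the AP-1 core). Both strands were searched, a match on the opposite strand appears as its reverse complement, and no shown match overlaps another.
Col1a2 (chr6:4505368-4505617, plus strand): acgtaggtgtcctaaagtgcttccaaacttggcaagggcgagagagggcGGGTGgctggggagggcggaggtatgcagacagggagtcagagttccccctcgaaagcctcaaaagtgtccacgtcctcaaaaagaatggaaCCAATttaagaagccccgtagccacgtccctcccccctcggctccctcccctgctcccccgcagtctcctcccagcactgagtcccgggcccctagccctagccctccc
Col5a1 (chr2:27886175-27886424, plus strand): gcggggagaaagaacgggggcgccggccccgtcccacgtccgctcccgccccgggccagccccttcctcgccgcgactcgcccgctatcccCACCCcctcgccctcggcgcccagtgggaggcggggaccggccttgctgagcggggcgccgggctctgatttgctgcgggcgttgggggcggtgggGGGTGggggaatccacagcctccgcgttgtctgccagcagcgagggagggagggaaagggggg
Col3a1 (chr1:45311288-45311537, plus strand): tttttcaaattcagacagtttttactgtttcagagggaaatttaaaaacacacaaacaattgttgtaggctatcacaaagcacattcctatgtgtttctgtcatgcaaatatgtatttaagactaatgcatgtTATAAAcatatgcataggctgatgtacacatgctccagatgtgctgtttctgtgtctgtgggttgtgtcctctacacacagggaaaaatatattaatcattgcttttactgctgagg
Col6a3 (chr1:90843972-90844221, minus strand): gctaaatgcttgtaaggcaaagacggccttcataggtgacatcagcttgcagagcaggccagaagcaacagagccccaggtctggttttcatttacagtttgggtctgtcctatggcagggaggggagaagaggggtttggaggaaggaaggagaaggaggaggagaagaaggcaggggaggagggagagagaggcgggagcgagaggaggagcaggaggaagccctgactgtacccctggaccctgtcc
Col15a1 (chr4:47207762-47208011, plus strand): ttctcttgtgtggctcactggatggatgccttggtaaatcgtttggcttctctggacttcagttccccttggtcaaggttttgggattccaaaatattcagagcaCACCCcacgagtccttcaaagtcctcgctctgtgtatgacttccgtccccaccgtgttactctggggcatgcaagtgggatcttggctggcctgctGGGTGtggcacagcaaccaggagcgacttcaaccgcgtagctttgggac

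Col1a2 and Col5a1 had the start base under a peak in all 10 libraries. At Col5a1 the fold of that peak was 8.10 and 5.21 in MEF, 7.73 and 7.14 at DAY3, 8.19 and 9.97 at DAY6, 12.1 and 10.5 at DAY9 and 7.37 and 6.19 in ESC. In ESC it was the only peak left in the Col5a1 window. Col3a1 and Col6a3 had the start base under a peak in the 2 MEF libraries and no peak within 1 kb of it in any later library. Col15a1 showed the reverse, with the start base under a peak in all 8 libraries from DAY3 on and no peak within 1 kb in MEF, although its window lost peaks. Col4a3 and Col4a4, whose gene ends overlap, also had a peak within 1 kb of a gene end or start in every library from DAY3 on and in no MEF library.

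The shown promoters differ in composition. Col5a1 holds 28 CpG dinucleotides and is 76.4% G and C, and Col1a2 holds 11 at 62.0%. Col3a1 holds none at 35.2%, Col6a3 holds 3 at 57.2% and Col15a1 holds 8 at 53.6%. Over the 9 collagens with a known start that lay under a peak in all 10 libraries (Col1a2, Col5a1, Col11a1, Col27a1, Col4a1, Col4a2, Col6a2, Col23a1 and Col25a1), the median was 18 CpG (range 7 to 31). Over the 8 whose start base lay under a peak in no library it was 2.5 (range 0 to 14), and over all 17492 promoters it was 10.

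Of the motifs, CCAAT was found in 12 of 35 collagen promoters and in 36.3% of all. In Col1a2 it lay 109 to 105 bases before the start. CACCC was found in 23 of 35 (6 of 8 fibrillar) and in 53.2% of all. TATAAA was found in 5 of 35 and 12.4%, once in Col3a1 at 117 to 112 bases before the start. TGANTCA was found in Col6a1 alone of the 35 and in 6.22% of all. Col6a3 holds none of these motifs in the shown window. These are matches of letters and not measured binding.

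The Col1a1 locus carries the inducible cassette in every stage but ESC, at a position the labels do not give, and its peaks changed place as well as number. In MEF most peaks lay on the low-coordinate side of the gene: 6.62 and 4.89 fold at 19.6 kb before the low-coordinate end of the gene in both libraries, 6.87 and 5.47 fold at about 7.2 kb before it, 4.70 and 3.17 fold at about 2.4 kb before it, and 5.13 and 2.97 fold on that end itself. The peak at about 7.2 kb was also present in both DAY3 libraries and in ESC replicate 1. From DAY3 on, no library had a peak on that end, and the nearest lay 0.99 to 1.19 kb inside the gene. That inner peak had folds of 4.57 and 5.48 at DAY3, 7.30 and 6.70 at DAY6, 8.04 and 8.86 at DAY9 and 4.91 and 5.06 in ESC; only MEF replicate 1 had one nearby, at 0.853 kb with a fold of 2.72.

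At the other end of the Col1a1 gene, which spans 16.8 kb, the induced cells had a strong peak, the highest fold of the window in all of their libraries but DAY9 replicate 2. It was centred 16.3 to 16.5 kb from the low-coordinate end, with folds of 6.94 and 5.51 at DAY3, 10.3 and 10.3 at DAY6 and 10.4 and 8.82 at DAY9. MEF, with the same cassette and no doxycycline, had a peak of 4.05 fold at 17.0 kb in replicate 1 and none in replicate 2. ESC, with no cassette, had none in replicate 1 and one of 3.10 fold at 16.2 kb in replicate 2. Another peak, 5.17 to 5.49 kb past the high-coordinate end (chr11:94957648-94958892), was absent from MEF, had folds of 2.69 to 6.17 at DAY3 to DAY9 and was highest in ESC, at 12.2 and 6.66. ESC lack the cassette and are also another cell line. Reads from inserted sequence that matches the locus would be counted at the locus, and their part in these peaks was not tested.

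**Figure D5:**
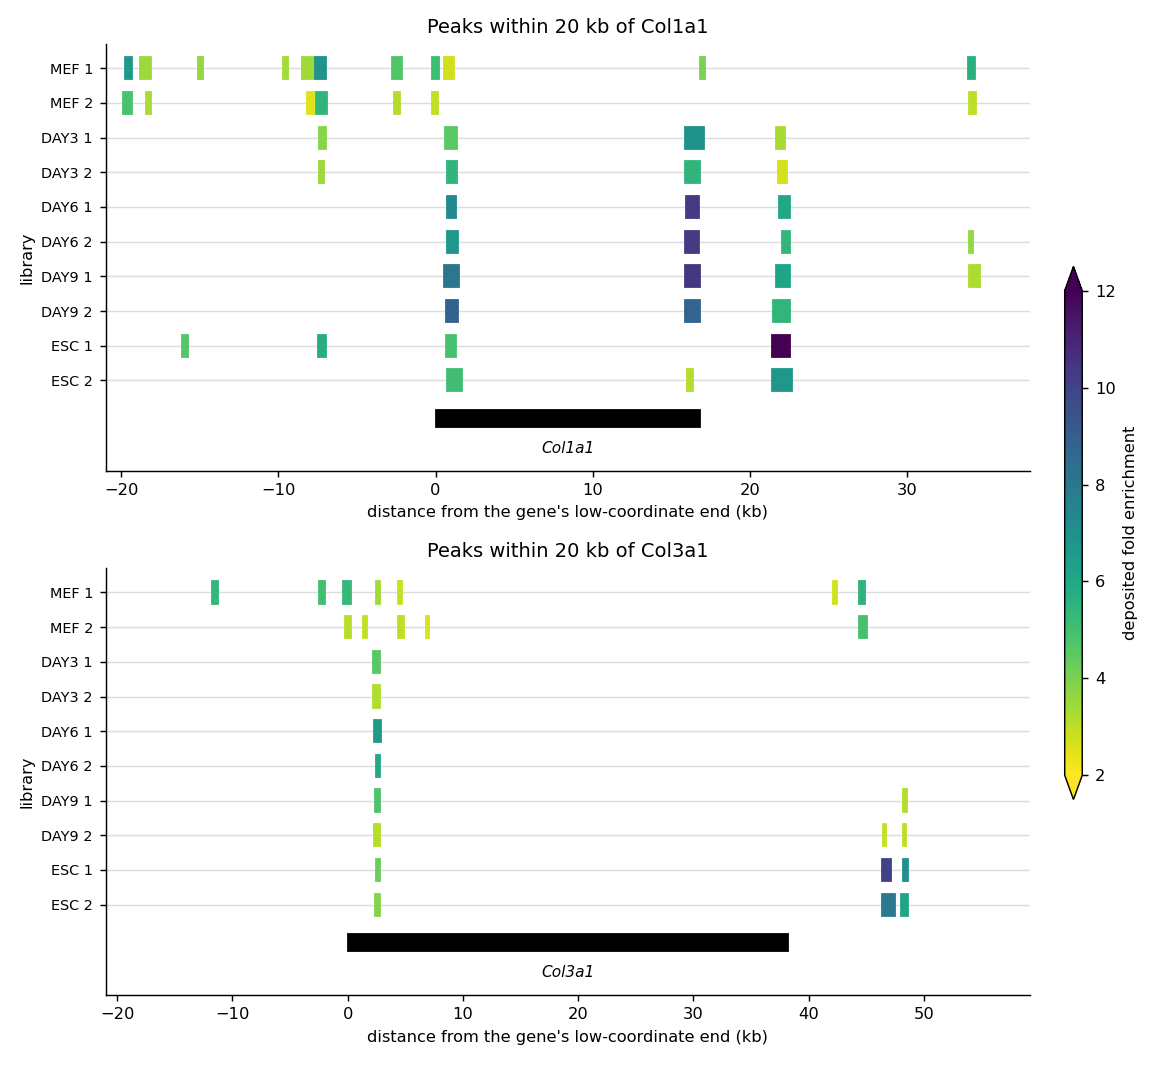
Peaks within 20 kb of Col1a1 (top) and Col3a1 (bottom) in each library, by distance from the low-coordinate end of the gene (black bar); box width is peak width, drawn at no less than 0.3 kb, and colour is the deposited fold enrichment. At Col1a1 most of the MEF peaks left of the gene give way to peaks about 1 kb inside it, near its right end and past it. At Col3a1 the peak at the gene end is seen in MEF alone. One about 2.5 kb inside is seen in every later library and already in MEF replicate 1.

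Col3a1 showed a similar move at its start. The peak on the start had folds of 5.29 and 3.07 in MEF and was absent from all 8 later libraries. Each of those had a peak 2.49 to 2.61 kb inside the gene, with folds of 4.60 and 3.19 at DAY3, 6.51 and 6.01 at DAY6, 4.80 and 3.11 at DAY9 and 4.24 and 3.87 in ESC. MEF replicate 1 had the same peak at 3.39 fold, and MEF replicate 2 did not. At Col1a2 no such move was seen: the peak on the start had folds of 8.11 and 6.35 in MEF and 5.21 and 4.77 at DAY3, and a peak covered the start base in every library.

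Genes that modify, fold, cleave, cross-link, degrade or bind collagen were counted in the same way. Of 45 such genes 44 were tested, 4 fell at DAY3 (P3h2, Lox, Itga2 and Itga11) and 9 in ESC, and none rose. The limma p was under 0.05 before adjustment for 19 and 15 of them, against 3395 and 5918 of all 18080 genes. Of all genes, 4.9% fell at DAY3, 4.47% fell in ESC and 15.3% rose in ESC. The median log2 difference of the processing genes was -0.49 at DAY3 and -0.18 in ESC, against -0.27 and 0.23 over all genes. The ones that fell in ESC with the smallest p-values were Ddr2, a receptor for fibrillar collagen (15 and 13 peaks in MEF, 3 and 8 in ESC, -1.32 ± 0.30, limma adjusted p = 0.00268), and Loxl2, a cross-linking enzyme (16 and 10 to 4 and 6, -1.21 ± 0.28, adjusted p = 0.00329). P4ha3, a subunit of prolyl hydroxylase (5 and 6 to 1 and 2), Adamts2, which removes a propeptide (14 and 12 to 6 and 7), and Lox, the founding cross-linker (6 and 5 to 2 and 2), fell by 1.40 ± 0.36, 0.90 ± 0.27 and 1.11 ± 0.34 (adjusted p = 0.00696, 0.0169 and 0.0194). The highest positive values belonged to Colgalt1, which adds galactose to collagen (4 and 5 to 9 and 7, 0.71, adjusted p = 0.0653), P3h1 and its partner Crtap (0.67 and 0.66), Pcolce (0.63) and Loxl4 (0.61), none of which passed. Without MEF replicate 1, 2 of these genes fell at DAY3 and 2 in ESC, beside 1.69% and 1.81% of all genes. Without MEF replicate 2, or without ESC replicate 1, 3 fell in ESC, beside 2.4% and 2.69%. Without DAY3 replicate 2, 8 fell at DAY3, beside 5.78%.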

How the data were processed

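Each library's peaks were taken as deposited. Per the submitters' processing notes, Bowtie2 2.3.2, MACS2 2.1.1, deepTools 2.3.6 and mm10 were used; their roles and settings, duplicate handling and the transposase offset are not given in the sources used here. The deposited lists hold a score, a fold enrichment (a linear ratio) and −log10 p- and q-values for each peak; no −log10 p was under 5. Peaks were listed per library. The fold values and −log10 p were used to describe and rank peaks within a list.

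From the lists, peaks overlapping each gene plus 20 kb were counted on RefSeq GRCm38.p6 genes, and log2(peaks + 1) of genes with a mean of at least 1 peak was fitted with limma 3.58.1 (R 4.3.3) over 8 samples, with stage as the only term and 3 residual degrees of freedom. The lone DAY3 and DAY9 samples are assumed to vary like the others. The prior for the spread was estimated from genes with residual variance, because 909 genes with tied counts had none. The plan named limma moderated with a mean trend and did not foresee this choice. The default prior of limma is kept as an alternative. On data simulated for ESC against MEF with 19139 genes, the fit used recovered 195 of 200 changed genes with 15 of 18939 false calls, and the default prior 50 with 580. The simulated libraries of a stage differed by random detection alone, and the changed genes had many peaks and large changes. The simulation therefore does not show how either prior performs on the real libraries, on genes with few peaks or on small changes. Shares of regions used python 3.11.15 with scipy 1.17.1. Between libraries of a stage, the mean squared difference in summit pileup, recovered from fold and −log10 p, over what counting noise gives was 1.33 for DAY3 and 1.42 for DAY9, against 5.56, 3.61 and 8.11 for MEF, DAY6 and ESC. The prior had 25.3 degrees of freedom beside the 3 residual ones. Each p-value therefore rests mostly on the spread typical of genes with a similar mean, and little on that gene's own libraries. That spread comes from the stages with 2 libraries and may be technical.

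The collagens, the classes, the processing genes and the markers were chosen with earlier results of these data known. Named were every fibrillar gene; as fewer than 12 other collagens passed in ESC against MEF, the 12 others with the largest absolute difference there; of the processing genes the 5 in each direction with the smallest p or, where none passed, the largest difference; and the 6 lost, gained and transient regions that ranked best by −log10 p. Col4a4, which passed in ESC but is not among those 12, collagens called at DAY3 or DAY6 alone, those just short of the threshold and the gene starts described were named after their values were seen.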

Additional observations from a re-analysis of the deposited data

How the results depend on the processing

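Of the values recomputed, none reversed, but most are counts or shares, which have no sign to reverse. For summary values, 219 of those with a library left out and 176 under other alternatives stayed close to the reported value, and 23 and 62 moved. Those that stayed include counts of 0 calls and settings that left out a library of a stage not compared. Such values could hardly move, so the totals do not measure robustness. For single genes 61 and 79 calls were lost, and of the shares of regions by class 4 and 12 moved. Limits are that read depth is unknown and that 3 residual degrees of freedom remain.

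In what follows, a percentage after a count is the share of all genes called the same way, and counts without one are not compared with all genes. Collagens lower at DAY3 against MEF (11 as reported, 4.9%) numbered 3 by base pairs under peaks (0.612%) and 4 with equal-number lists (1.02%). They numbered 20 with 10 libraries counted separately (14.4%) and 2 with limma's default prior (1.65%). The plan named limma moderated with a mean trend and did not foresee the prior used for the reported counts. The default prior was kept as an alternative added to the plan. With a library left out they numbered 6 to 14 (1.69 to 6.29%). Collagens higher at DAY6 against DAY3 (2) numbered 0 by base pairs, with equal-number lists, with a 50 kb window and with the default prior, and 0 to 3 with a library left out. Collagens lower in ESC against DAY9 (0) numbered 6 with equal-number lists (3.45%), 1 without the filter, 1 with a 5 kb window, 3 with 10 libraries and 0 to 1 with a library left out. With equal-number lists, 1 was higher (1.24%). Collagens lower in ESC against MEF (14, 4.47%) numbered 9 by base pairs (3.52%), 3 with the default prior (2.56%) and 5 to 14 with a library left out (1.81 to 4.49%). In that comparison 1 was higher with equal-number lists (8.64%), without the filter and with a 5 kb window, and 0 to 2 with a library left out.

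Processing genes lower at DAY3 against MEF (4, 4.9%) numbered 1 by base pairs (0.612%), 1 with equal-number lists (1.02%) and 12 with 10 libraries (14.4%). They numbered 2 with the default prior (1.65%) and 2 to 8 with a library left out (1.69 to 6.29%). A single one was higher with a 5 kb window and with 10 libraries. In ESC against DAY9 (0 and 0), 2 were lower and 1 higher with equal-number lists, and 1 lower and 1 higher with 10 libraries. In ESC against MEF 9 were lower (4.47%), against 4 by base pairs (3.52%), 5 with a 50 kb window (4.09%) and 2 with the default prior (2.56%). With a library left out 2 to 9 were lower (1.81 to 4.49%). The number higher was 1 with equal-number lists (8.64%) and with a 5 kb window, 2 with a 50 kb window and with 10 libraries, and 0 to 1 with a library left out.

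The replicate numbers do not pair the libraries (correlations of deviations from -0.052 to 0.035 over 10 pairs of stages). With the replicate block over 10 libraries, 22 collagens were lower at DAY3 against MEF, beside 14.3% of all genes. With it, 5 collagens were lower in ESC against DAY9 and 1 was higher in ESC against MEF. With the same replicate block, 14 processing genes were lower at DAY3 against MEF, beside the same 14.3% of all genes, and 1 was higher. In ESC against DAY9, 1 was lower and 1 higher, and in ESC against MEF 2 were higher.

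The share of MEF regions lost by DAY3 was 50.4% with equal-number lists and 71.0% with the 50% overlap rule. Away from gene starts, a split chosen after seeing the data, it was 70.3% (59% near all genes). With a library left out it was 66.7 to 70.9%. In ESC it was 77.6% with that overlap rule, 59.3% with the stronger part of each list and 77.5% away from starts (63.5% near all genes). The share gained by DAY3 was 43.2% away from starts (45.9% near all genes) and 32.5 to 46.5% with a library left out. The share gained in ESC was 54.1% with that overlap, 56.7% away from starts (66.1% near all genes) and 44.0 to 58.9% with a library left out. For the settings without an all-gene share, equal-number lists among them, these values do not show whether the gap to all genes holds. With the stronger part of each list, 12, 11, 13, 12 and 10 collagens had a start peak in MEF, DAY3, DAY6, DAY9 and ESC, and with equal-number lists 13 at DAY9 and 13 in ESC. The median log2 difference of the other collagens was -0.16 (DAY3) and -0.65 (ESC) with equal-number lists, -0.93 at DAY3 without genes that share windows, and -1.01 to -0.58 and -0.71 to -0.16 with a library left out.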
